A study of Tigriopus californicus with 32 samples.

Results

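The copepod Tigriopus californicus lives in splash pools of the rocky Pacific shore, where the water warms and cools every day. Gene expression at 28° was compared in the northern population from Santa Cruz (SC-N) between adults raised in a regime that cycled daily between 20° and 28° (28V) and adults raised at a nonvariable 20° that met 28° for the first time (28ST). The comparison was chosen by population and temperature, so it holds the 2 libraries of 28V and the 2 libraries of 28ST, 4 of the 32 RNA-seq libraries of the series. All 4 were taken after 2 h at 28°, and all animals had been born to females of field-collected cultures and spent this 1 generation in their regime. Each library was made from a separate dish of 100 adults of both sexes in equal numbers, whole animals without a sort of tissues, so less of a tissue and less RNA per cell cannot be told apart. The column names of each treatment end in 2 different suffixes, which are called a and b here. Each suffix was treated as 1 sequencing lane, although no label says so. The paper sequenced the 2 replicates of SC-N in separate lanes and on different HiSeq models, so lane and instrument cannot be told apart. In each SC-N treatment it lists a smaller share of mapped reads for replicate 1 than for replicate 2.

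Heat unfolds proteins, and cells answer with heat-shock proteins (Hsp). Hsp70 and its partner Hsp40 bind unfolded chains, GRP78 is the Hsp70 of the endoplasmic reticulum, Hsp90 holds signalling proteins ready, and small Hsps keep unfolded proteins from clumping. A crustacean also rebuilds its chitinous cuticle at each moult, and females load their eggs with vitellogenin, the yolk precursor. The comparison asks which of these systems differ at 28° between animals used to daily warming and animals warmed once.

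The tables listed 18321 genes for 28V and 18050 for 28ST, and the 17468 genes in both were rescaled together. Levels are given as cpm, reads scaled to library size by this joint scaling. The 4 libraries held between 4366453 and 14509087 reads, with the most in 28V suffix b. Before the results, the 2 libraries of 28V have to be set apart from each other. On the log2 scale and over 12020 genes with a mean of at least 10 cpm in the 8 SC-N libraries, the 28ST libraries correlated at r = 0.956 with each other, whereas the 28V libraries correlated at 0.736. The library of 28V with suffix a correlated at 0.880 and 0.866 with the 28ST libraries but at 0.787 and 0.726 with the libraries of the same regime at 20° (20V). Suffix b of 28V correlated at 0.977 with 20V suffix b and at 0.890 with 20V suffix a. Suffix a of 28V also correlated more closely with 20NV (0.863 and 0.832). Over the transcriptome this library thus stood closer to the nonvariable regime than to its own, and the cause was not tested. Neither its label nor the mix of animals in its pool can be checked from the values used here. Its summed level of the 5 vitellogenins was 408 cpm, against between 11649 and 137051 cpm in the other 3 libraries at 28°. The correlations are across genes and describe the libraries. Every value of 28V suffix a below carries this doubt, and results are therefore given for each library.

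Over the whole transcriptome the 2 pairs of libraries (28V against 28ST within a suffix) moved apart more often than together. Only 6409 genes, 36.7%, differed in the same direction in both pairs, and the log2 differences of the pairs correlated at -0.20 across genes. At a Benjamini-Hochberg adjusted p under 0.05 in limma, with the suffix as a block, 58 genes were differentially expressed (DE), 0.332% of the genes tested. Of these, 28 were higher in 28V (0.16%) and 30 were lower (0.172%). All 58 had the same direction in both pairs, and in 57 the 28V libraries did not overlap with the 28ST libraries. Of all genes, 11.4% had both 28V libraries above and 9.51% had both below. The 58 were chosen on the same libraries, so these counts describe the calls and are no separate support. In 6 of the 58 the smaller difference of the pairs was under 0.25 of the larger. The number of DE genes rests on the block and on the libraries used to estimate the spread: without the block 0 genes passed (366 at an unadjusted p under 0.05), and 0 passed when all 8 SC-N libraries were fitted together (863 at an unadjusted p under 0.05). With 1 library of 28V set against both of 28ST without the block, a fit chosen after seeing the data, all 58 kept their direction. The same libraries had chosen them, so this was nearly fixed in advance.

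**Figure D1:**
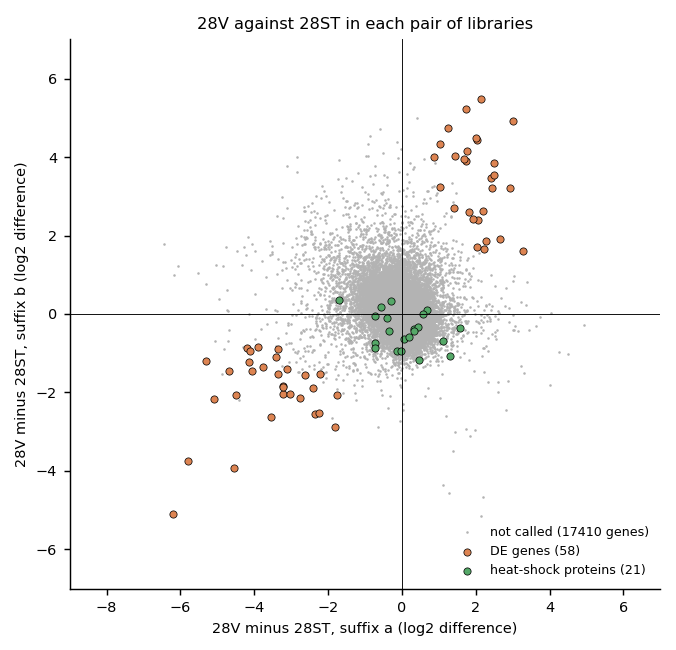
Log2 difference of 28V minus 28ST between the suffix a libraries (x axis) and between the suffix b libraries (y axis) for each of the 17468 genes tested, with the 58 DE genes in orange and the 21 Hsp70, GRP78, Hsp90 and small Hsp genes in green. DE genes lie only in the quadrants where both pairs moved the same way, while the heat-shock genes sit near the centre.

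Genes of the cuticle were the most frequent described group among the rises. Of the 94 genes with a description of cuticle or chitin that were tested, 9 rose and 0 fell, 27 were higher in both pairs (against 18.2% of all genes), and 23 had both 28V libraries above both 28ST libraries. The list holds only described genes, which stood above all genes tested. Descriptions cover mainly genes that the study called in some comparison, so list and described genes were partly chosen on these libraries. Of the 2751 described genes 0.836% rose (9.57% of the cuticle list, 0.16% of all genes), 22.9% were higher in both pairs (28.7% of the cuticle list), and 16.3% did not overlap and were higher (24.5% of the cuticle list, 11.4% of all genes). The median log2 difference of these 94 genes was 0.60, against 0.06 over the described genes and -0.0045 over all genes tested. The 2 libraries of 28V did not share this shift evenly, since 85 of the 94 genes were higher in suffix b (median 1.73 on the log2 scale) and 28 were higher in suffix a (median -0.59). The 9 called genes were higher in both. At 20° the order of the suffixes was the reverse, with a median of 20V minus 20NV of 1.52 in suffix a and -0.04 in suffix b. There 38 of the 94 genes were higher in 20V in both pairs, against 39.4% of all genes.

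Among the called genes of that list were 2 described as cuticle protein 7. The level of TCALIF_12217 was 4.64 and 3.23 cpm in 28ST and 17.8 and 158 cpm in 28V (suffix a and b), a log2 difference of 3.48 ± 0.58 (moderated SE, n = 2 pools per treatment, limma adjusted p = 0.00306). Here and below, the SEs, intervals and p-values of limma draw their spread mainly from all genes tested (prior degrees of freedom 24.6 against 1 residual). They do not measure the spread of the pools of a single gene. The pair differences of TCALIF_12217 were 1.74 in suffix a and 5.23 in suffix b. The level of TCALIF_06039 was 4.64 and 11.3 cpm in 28ST and 30.7 and 176 cpm in 28V (log2 difference 3.17 ± 0.46, limma adjusted p = 0.00086). In both genes even the lower 28V library, suffix a, was above the higher 28ST library. The flexible cuticle protein 12 precursor TCALIF_07889 was at 17.3 and 7.27 cpm in 28ST and at 42.4 and 221 cpm in 28V. The cuticle protein TCALIF_12219 was at 5.06 and 4.85 cpm in 28ST and at 33.2 and 67.5 cpm in 28V. The cuticle protein TCALIF_01077 was at 8.23 and 9.21 cpm in 28ST and at 30.2 and 181 cpm in 28V. These 3 structural proteins rose by between 2.96 and 3.02 on the log2 scale, again with the larger share in suffix b.

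Other called genes of the cuticle, chosen after their values were seen, were more even between the 28V libraries. Chitin synthase (TCALIF_08870), the enzyme that makes the chitin of the cuticle, was at 27.4 and 29.7 cpm in 28ST and at 116 and 98.7 cpm in 28V, a log2 difference of 1.87 ± 0.41 (limma adjusted p = 0.0396). Cuticle protein 6 (TCALIF_12573) was at 70.3 and 58.3 cpm in 28ST and at 332 and 188 cpm in 28V. Both were therefore higher in each 28V pool, and cuticle protein 6 more so in suffix a than in suffix b. The last 2 of the 9 were comp41401_c0_seq1_26413, at 9.92 and 10.02 cpm in 28ST and at 28.5 and 180 cpm in 28V, and TCALIF_07345, at 5.70 and 7.11 cpm and at 22.7 and 48.5 cpm.

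The largest rise of all was that of TCALIF_12218, described as a bcs-1 protein. It was at 3.59 and 2.75 cpm in 28ST and at 35.6 and 113 cpm in 28V, a log2 difference of 3.96 ± 0.50 (limma adjusted p = 0.000102). The 3 genes TCALIF_12217, TCALIF_12218 and TCALIF_12219 carry consecutive identifiers, and all 3 were called. Contig4770_6379, described by the fly gene cg13310, was at 1.90 and 1.62 cpm in 28ST and at 11.9 and 116 cpm in 28V (log2 difference 3.82). TCALIF_04675, which has no description, was at 2.11 and 7.92 cpm in 28ST and at 11.7 and 192 cpm in 28V (log2 difference 3.23). In these genes the rise was larger in suffix b than in suffix a.

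The 2 most abundant DE genes that rose were already well expressed in 28ST. TCALIF_13039, an N-acylglucosamine 2-epimerase that interconverts amino sugars, was at 579 and 282 cpm in 28ST and at 4394 and 2615 cpm in 28V (log2 difference 3.06 ± 0.68, limma adjusted p = 0.0424). TCALIF_13593, described as a spt transcription factor family member, was at 670 and 164 cpm in 28ST and at 2699 and 3684 cpm in 28V (log2 difference 3.24 ± 0.70, limma adjusted p = 0.0382). In both genes each 28V library was above both 28ST libraries, and the 28V libraries were close to each other, so neither rise rested on 1 library of 28V.

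Members of the spt family did not move as 1 group. Of 22 members listed for SC-N, 20 were tested, 3 rose (against 0.16% of all genes and 0.836% of the described genes) and 0 fell, and the log2 differences of the family ran from -0.99 to 3.24. Besides TCALIF_13593, comp24543_c0_seq1_13004 rose, from 30.4 and 5.98 cpm in 28ST to 104 and 104 cpm in 28V. TCALIF_12524 rose too, but with most of the change in 1 library, since its level was 9.07 and 15.2 cpm in 28ST and 17.5 and 257 cpm in 28V. The other 2 members were listed only in the table of 28ST. Of these, TCALIF_02087 was at 126 and 207 cpm there, as deposited. The family was singled out after its values were seen, and reads of near-identical copies may have been split or lost, since only uniquely mapped reads were counted.

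**Figure D2:**
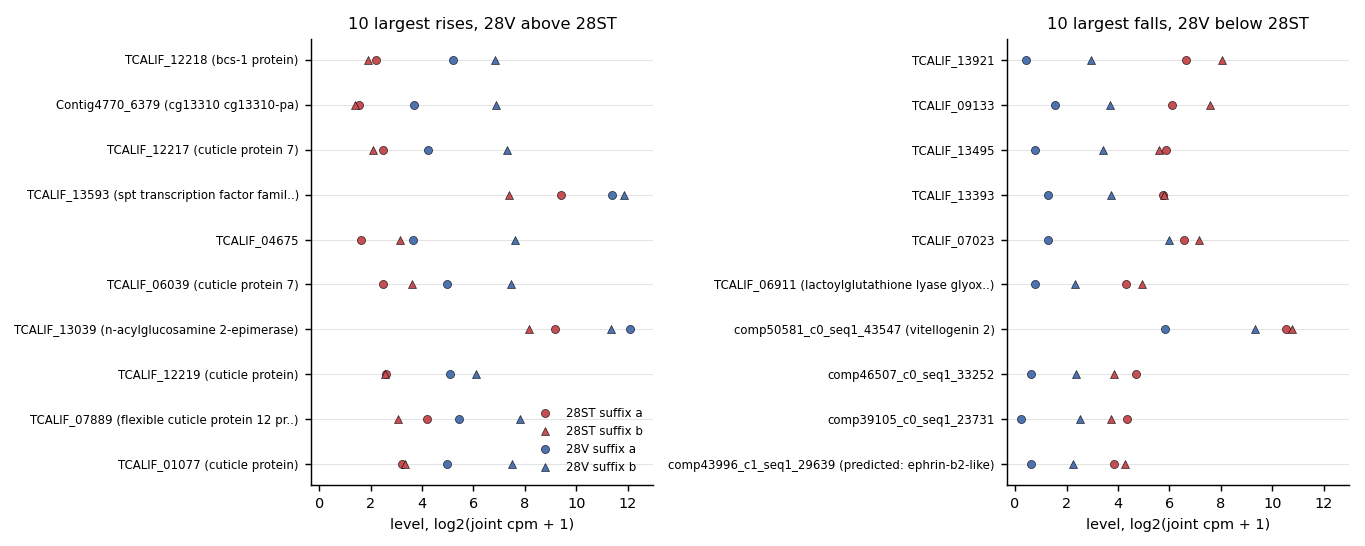
Level of the 10 genes with the largest rises (left) and the 10 with the largest falls (right) among the DE genes, as log2(cpm + 1) in each library (x axis); red symbols are 28ST, blue symbols 28V, circles suffix a and triangles suffix b. Red and blue symbols do not overlap in any of the 20 genes, and 28V suffix a is the lowest library in all 10 falls.

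Among the other rises, a c-type lectin, a sugar-binding protein of a kind that often serves immune recognition, comp44898_c0_seq1_30817, was at 4.22 and 6.79 cpm in 28ST and at 20.6 and 40.2 cpm in 28V (log2 difference 2.23, limma adjusted p = 0.0348). It was the only 1 of 15 lectins tested that was called, where 0.836% of described genes and 0.16% of all genes rose. The median of the lectins was 0.13. comp48162_c0_seq1_36727, with no description, was at 4.22 and 2.42 cpm in 28ST and at 9.60 and 67.6 cpm in 28V. TCALIF_07499, described as luciferin 4-monooxygenase-like and chosen after its values were seen, was at 5.91 and 11.5 cpm in 28ST and at 66.5 and 36.8 cpm in 28V. Its rise was larger in suffix a. Several rises were hypothetical proteins with neighbouring identifiers, also chosen after their values were seen. TCALIF_09769 was at 1.27 and 5.01 cpm in 28ST and at 11.3 and 54.2 cpm in 28V, and TCALIF_09776 at 1.06 and 6.46 cpm and at 5.59 and 115 cpm, beside TCALIF_09766 and TCALIF_09775, which also rose.

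The falls were mostly in genes without a description, since 11 of the 30 had one, against 23 of the 28 rises. The largest fall was TCALIF_13921, at 97.9 and 264 cpm in 28ST and at 0.349 and 6.76 cpm in 28V, a log2 difference of -5.65 ± 0.45 (limma adjusted p = 4.21e-08). TCALIF_09133 was at 67.1 and 193 cpm in 28ST and at 1.92 and 11.7 cpm in 28V (-4.23 ± 0.44, limma adjusted p = 4.26e-06). In both genes the suffix b library was higher than the suffix a library within each treatment, and both 28V libraries were below both 28ST libraries. TCALIF_13495 was at 56.8 and 48.0 cpm in 28ST and at 0.698 and 9.83 cpm in 28V (-3.63), and TCALIF_13393 at 53.4 and 54.8 cpm and at 1.40 and 12.2 cpm (-3.29). TCALIF_13494, outside the rule for named genes because it had 0 reads in 28V suffix a, was at 54.9 and 47.5 cpm in 28ST and at 2.61 cpm in 28V suffix b. TCALIF_07023 fell mostly in suffix a, where it was at 94.1 cpm in 28ST and 1.40 cpm in 28V, against 142 and 61.6 cpm in suffix b.

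Described falls touched several roles. TCALIF_06911, a lactoylglutathione lyase (glyoxalase I) that detoxifies a by-product of glycolysis with glutathione, was at 19.0 and 29.9 cpm in 28ST and at 0.698 and 3.99 cpm in 28V (-3.09 ± 0.51, limma adjusted p = 0.00293). It was the only called gene of 29 genes of detoxification and redox, whose median was 0.01. Among described genes 0.4% fell, and among all genes 0.172%. Serine protease 27 (TCALIF_09336) was at 88.2 and 112 cpm in 28ST and at 17.8 and 18.7 cpm in 28V (-2.38 ± 0.42, limma adjusted p = 0.00533), the fall with the closest agreement of the 28V libraries among the described genes that are named here. The cathepsin l-associated protein TCALIF_09688 was at 67.95 and 80.46 cpm in 28ST and at 2.97 and 41.6 cpm in 28V, so most of its fall was in suffix a. Of 72 proteases tested these 2 fell (2.78%, against 0.4% of described genes) and 0 rose, while the median of the list was 0.33.

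Zinc finger protein zfs1 (TCALIF_04632), named after a fission yeast protein that promotes the decay of mRNA, was at 106 and 61.2 cpm in 28ST and at 6.81 and 23.3 cpm in 28V (-2.56, limma adjusted p = 0.0133). A tis11-like protein (comp42812_c0_seq1_28109), named after a fly protein of the same zinc finger class and chosen after its values were seen, was at 54.2 and 33.8 cpm in 28ST and at 4.19 and 15.2 cpm in 28V. An ectonucleoside triphosphate diphosphohydrolase (TCALIF_05165), which cleaves nucleotides outside the cell, was at 39.5 and 41.0 cpm in 28ST and at 1.22 and 22.2 cpm in 28V, with most of the fall in suffix a. A caspase nc-like gene (comp40640_c0_seq2_25516), of a family of proteases that carry out programmed cell death and also chosen after its values were seen, was at 200 and 236 cpm in 28ST and at 12.4 and 131 cpm in 28V. An ephrin-b2-like gene (comp43996_c1_seq1_29639), a ligand of cell contact receptors, was at 13.3 and 18.4 cpm and at 0.524 and 3.76 cpm. The DNT genes comp46507_c0_seq1_33252 and comp39105_c0_seq1_23731 (de novo transcripts) had no description and fell by 2.77 and 2.68 on the log2 scale. In all 7 genes the lowest of the 4 libraries was 28V suffix a.

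Vitellogenins were lower in 28V in every member. All 5 vitellogenins tested were lower in both pairs, against 18.4% of all genes, with a median log2 difference of -3.07. The difference was larger in suffix a (median -4.70) than in suffix b (median -1.44). Of the 5, 1 was called, where 0.4% of described genes and 0.172% of all genes fell. This was vitellogenin 2 (comp50581_c0_seq1_43547), at 1470 and 1758 cpm in 28ST and at 55.7 and 646 cpm in 28V (-3.07 ± 0.64, limma adjusted p = 0.0298). The other vitellogenin 2, TCALIF_13264, was at 7142 and 7702 cpm in 28ST and at 242 and 2652 cpm in 28V (limma adjusted p = 0.234). Vitellogenin 1 (TCALIF_06577) was at 1846 and 1309 cpm in 28ST and at 54.0 and 809 cpm in 28V (limma adjusted p = 0.0871). In these 3 genes both 28V libraries were below both 28ST libraries, with 28V suffix a far below the rest. Of the other members, Contig6667_8147 was at 1170 and 126272 cpm in 28ST and at 53.8 and 27840 cpm in 28V, where the gap between suffixes exceeds that between regimes, and TCALIF_13701 was at 20.26 and 9.855 cpm and at 2.97 and 6.22 cpm. Vitellogenins are made by egg-producing females, and their levels are given here as the marker of such females in mixed pools. Their part in the other differences was not tested.

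Heat-shock proteins are described next by their levels. None of the 9 Hsp70 and GRP78 genes, 3 Hsp90 genes and 9 small Hsps tested passed the threshold, which 0.332% of all genes passed, so the count itself says little of 21 genes. The median log2 differences of the lists were -0.35, -0.29 and 0.05. The most abundant Hsp70 at 28°, TCALIF_04517, was at 1389 and 1807 cpm in 28ST and at 835 and 1731 cpm in 28V (log2 difference -0.40, 95% interval -1.88 to 1.08). At 20° it was at 68.2 and 68.7 cpm in 20NV and at 82.0 and 110 cpm in 20V, on the scale of all 8 libraries. The Hsp70 TCALIF_06728 was at 175 and 148 cpm in 28ST and at 241 and 65.1 cpm in 28V (-0.35, 95% interval -1.30 to 0.59). At 20° this gene was at 2.32 and 3.31 cpm in 20NV and at 10.53 and 7.201 cpm in 20V. The Hsp70 TCALIF_09482 was at 75.3 and 80.1 cpm in 28ST and at 22.3 and 103 cpm in 28V. The 28V libraries lay on both sides of 28ST in the last 2 genes, with opposite order of the suffixes.

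The GRP78 genes were the only Hsp70 members with both 28V libraries below both 28ST libraries. TCALIF_00753 was at 609 and 909 cpm in 28ST and at 595 and 473 cpm in 28V (-0.49, 95% interval -1.68 to 0.70), and comp32704_c0_seq2_17919 was at 34.6 and 51.4 cpm and at 31.6 and 26.1 cpm. The gene comp38417_c0_seq1_22939, listed with Hsp70 but described only as a loc560210 protein, was at 688 and 838 cpm in 28ST and at 459.5 and 955.5 cpm in 28V. Of the other members, TCALIF_03946 was at 1130 and 1373 cpm in 28ST and at 1299 and 919 cpm in 28V, while TCALIF_11487 and comp50334_c0_seq1_42602 were between 7.51 and 26.2 cpm in the 4 libraries. The intervals of these genes span 0 widely, so the missing calls do not show that the regimes were alike.

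The same held for Hsp90 and the small Hsps. The Hsp90 gene TCALIF_01534 was at 1912 and 2413 cpm in 28ST and at 1999 and 1539 cpm in 28V (-0.29, 95% interval -1.94 to 1.36). comp41334_c0_seq1_26338 was at 599 and 728 cpm in 28ST and at 472 and 535 cpm in 28V, and comp46685_c0_seq1_33583 at 19.0 and 102 cpm and at 42.1 and 62.5 cpm. Among small Hsps the differences ran from -0.79 to 0.61. At the low end, TCALIF_11866 was at 295 and 406 cpm in 28ST and at 178 and 222 cpm in 28V (unadjusted p = 0.104 in limma), and TCALIF_10081 was at 180 and 123 cpm and at 109 and 72.9 cpm. At the high end, TCALIF_04918 was at 51.9 and 75.4 cpm in 28ST and at 158 and 58.6 cpm in 28V. Hsp beta-1 (TCALIF_13715) was at 194 and 255 cpm in 28ST and at 475 and 121 cpm in 28V, so that 28V held both the highest and the lowest value. TCALIF_06394, TCALIF_13523, TCALIF_13714, TCALIF_07011 and TCALIF_00902 lay between -0.25 and 0.40.

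All 9 small Hsps and all 3 Hsp90 genes were above their 20° level in both libraries of each regime at 28°. Of the 9 Hsp70 and GRP78 genes, 6 were above 20V in both 28V libraries and 7 were above 20NV in both 28ST libraries. Of all genes 13.3% were above 20V in both 28V libraries, and 2136 of 17425 were above 20NV in both 28ST libraries. Of described genes 16.1% and 655 of 2742 were so. The lists draw on descriptions that cover mainly genes the study called in some comparison, partly on these libraries. These counts were thus partly fixed in advance and are no separate support. At 20° itself, 7 of the 9 small Hsps were higher in 20V than in 20NV in both pairs (median log2 difference 0.69), against 39.4% of all genes. At 28° 1 of 9 was higher in both pairs, against 18.2% of all genes. The change of the difference between 20° and 28° was not past the threshold in any small Hsp. The 42 co-chaperones and folding factors had a median of -0.11 with 0 called, against 0.332% of all genes, so the count says little. The mitochondrial chaperonin Hsp60 (TCALIF_02260) was at 487 and 673 cpm in 28ST and at 673 and 376 cpm in 28V, and the 97 kDa Hsp (TCALIF_10670) at 405 and 512 cpm and at 677 and 438 cpm.

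**Figure D3:**
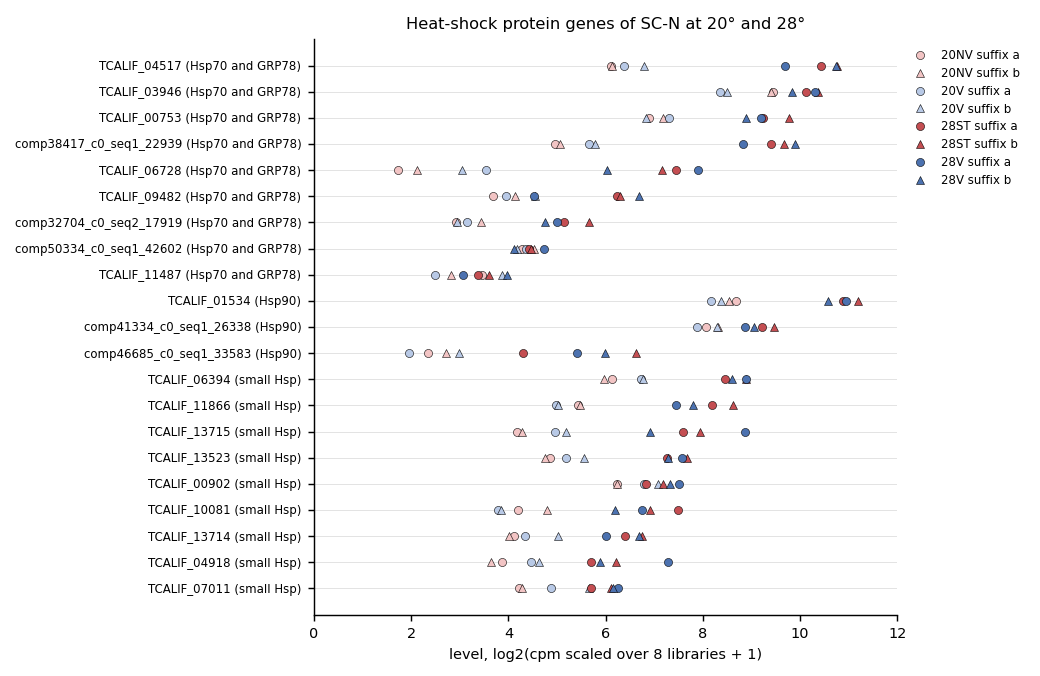
Level of the 21 Hsp70, GRP78, Hsp90 and small Hsp genes in the 8 SC-N libraries, as log2(cpm + 1) after scaling over all 8 libraries (x axis); pale symbols are the 20° libraries and dark symbols the 28° libraries of the nonvariable (red) and variable (blue) regime, circles suffix a and triangles suffix b. Dark red and dark blue symbols overlap or lie next to each other in most genes, mostly to the right of the pale ones; TCALIF_11487 and comp50334_c0_seq1_42602 are exceptions.

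The study had picked 25 genes as responding to 28ST in all 4 populations, and thus partly on the 28ST libraries used here. Of these, 0 were called between 28V and 28ST, against 0.332% of all genes, so the count says little. Their median log2 difference was -0.25, 8 of 25 were lower in both pairs (against 18.4% of all genes) and 0 were higher in both (against 18.2%). Of the 25, 22 were above 20V in both 28V libraries, against 13.3% of all genes. Besides the Hsps named above, Hsp40 (TCALIF_05614) was at 135.5 and 134.7 cpm in 28ST and at 143.9 and 109.5 cpm in 28V. X-box binding protein 1 (TCALIF_09115), the transcription factor of the response to unfolded proteins in the endoplasmic reticulum, was at 138 and 140 cpm in 28ST and at 236 and 123 cpm in 28V. The bag domain protein TCALIF_09395, a co-chaperone of Hsp70, was at 110 and 94.5 cpm in 28ST and at 132 and 85.4 cpm in 28V. In each of these 3 genes suffix a of 28V was the highest library and suffix b the lowest.

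Other members of that set were less alike between the 28V libraries. The adhesion lipoprotein TCALIF_01814 was at 258 and 87.6 cpm in 28ST and at 34.7 and 1425 cpm in 28V, and TCALIF_05480 at 479 and 505 cpm and at 1753 and 300.5 cpm. TCALIF_02439 (CD63 antigen, a tetraspanin) was at 194 and 293 cpm in 28ST and at 139 and 229 cpm in 28V. comp51313_c0_seq1_44507 was at 846 and 1341 cpm in 28ST and at 484 and 1454 cpm in 28V. For the rest (TCALIF_00957, TCALIF_03375, TCALIF_03376 and Contig20_19) the log2 differences ran from -0.70 to -0.20. The 3 genes that the study picked only for 28V vs 20V, and thus partly on the 28V libraries, were at -0.45 (TCALIF_06172), -0.31 (TCALIF_13893) and 0.75 (TCALIF_00461) on the log2 scale, and none of the 7 was called.

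Of 47 genes of muscle and sarcomere, 42 were higher in 28V on average, with 45 higher in suffix b and 19 in suffix a (95.7% and 40.4%). Of described genes, from which the lists were drawn, 61.3% and 44.5% were so, and of all genes 49.6% and 50.2%. The median log2 difference of the muscle list was 0.50, with 0 called. Muscle myosin heavy chain (TCALIF_02474) was at 2864 and 2356 cpm in 28ST and at 4817 and 6941 cpm in 28V, and tropomyosin (TCALIF_09238) at 1418 and 1427 cpm and at 1617 and 3391 cpm. Of 74 ion channels and neural receptors, 63 were higher in suffix b and 23 in suffix a (85.1% and 31.1%; median 0.15, 0 called). The neuronal acetylcholine receptor TCALIF_12344 was at 929 and 873 cpm in 28ST and at 171 and 2194 cpm in 28V, a fall in 1 pair and a rise in the other. The neuropeptide precursor TCALIF_10620 was at 338 and 147 cpm in 28ST and at 127 and 980 cpm in 28V. Lists of lipid metabolism (29 genes, median 0.11), carbohydrate metabolism (31 genes, median 0.19) and chromatin and nucleus (92 genes, median -0.04) had 0 called genes. With 0.332% of all genes called, the 0 calls in each list of this paragraph say little.

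None of the most abundant members of these lists was called. Alpha-amylase (TCALIF_00284), which digests starch, was at 637 and 671 cpm in 28ST and at 862 and 912 cpm in 28V, while alpha-amylase 1 (TCALIF_12427) was at 259 and 268 cpm and at 180 and 432 cpm. An acyl-desaturase-like gene (comp32770_c0_seq1_17973) was at 339 and 382 cpm in 28ST and at 377 and 309 cpm in 28V, and the lipid carrier apolipophorin (TCALIF_12695) at 253 and 212 cpm and at 133 and 323 cpm. Nuclear protein 1 (TCALIF_02371) was at 1371 and 1254 cpm in 28ST and at 730 and 1647 cpm in 28V, and comp41663_c0_seq1_26714 of the same description at 682.4 and 622.5 cpm and at 373 and 840 cpm. In the last 3 genes suffix a of 28V was the lowest library and suffix b the highest.

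**Figure D4:**
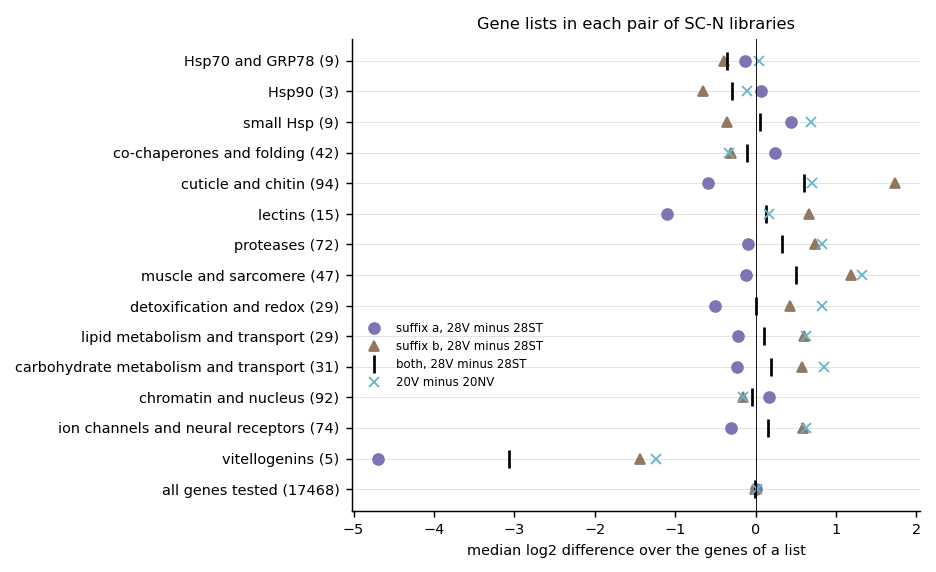
Median log2 difference over the tested genes of each list (number in brackets) for the pair with suffix a (circles), the pair with suffix b (triangles), both pairs together (bars) and 20V minus 20NV (crosses). Lists of cuticle, lectins, proteases, muscle, metabolism and neural receptors have the circle left of 0 and the triangle right of 0, while all 4 symbols of the vitellogenins are left of 0. The cross of the vitellogenins joins pairs that differed at 20°, with a median of 0.22 in suffix a and -2.61 in suffix b.

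The difference between regimes was also measured at 20°, in other dishes than those of 28°, so that the DE genes of 28V vs 28ST could be looked up in libraries that did not choose them. All 30 genes that were lower in 28V were also lower in 20V than in 20NV in both pairs, against 36.7% of all genes tested at 20°. Of the 28 genes that were higher in 28V, 24 were higher in 20V in both pairs, against 39.4% of all genes. Their median log2 difference was 2.78 at 28° and 2.06 at 20°, and that of the 30 falls -2.53 at 28° and -2.03 at 20°. In the 4-library limma fit at 20°, 0 genes passed the adjusted threshold, with 5445 genes (31.2%) at an unadjusted p under 0.05. EdgeR's quasi-likelihood test also gave 0. By edgeR's likelihood ratio test with the lane as block, the study called more genes at 20° in SC-N than in its other populations. The 0 here belongs to the tests used and does not show that the regimes were alike at 20°. Of the 58 DE genes, 47 were among these 5445, all in the same direction. The sequencing lanes, as far as the suffix stands for them, were shared between 20° and 28°.

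Examples of both directions follow. TCALIF_13921, the largest fall at 28°, was at 521 and 88.1 cpm in 20NV and at 3.95 and 0.309 cpm in 20V. Serine protease 27 (TCALIF_09336) was at 105.3 and 142.7 cpm in 20NV and at 10.97 and 18.11 cpm in 20V, and glyoxalase I (TCALIF_06911) at 30.1 and 36.7 cpm and at 1.32 and 2.37 cpm. Among the rises, TCALIF_13593 of the spt family was at 117 and 650 cpm in 20NV and at 7854 and 6600 cpm in 20V, and TCALIF_13039, the epimerase, at 213 and 484 cpm and at 2288 and 1214 cpm. In these 5 genes the regimes were apart in the same direction before the shift to 28° and 2 h after it. The cuticle gene TCALIF_12217 was at 0.356 and 9.64 cpm in 20NV and at 25.0 and 75.4 cpm in 20V. Pools of 1 treatment differed widely in such genes. TCALIF_12219 was at 0.178 and 18.6 cpm in 20NV and at 28.1 and 33.6 cpm in 20V. TCALIF_06039 was at 1.25 and 31.9 cpm in 20NV and at 24.6 and 65.1 cpm in 20V, with overlapping libraries. Libraries also overlapped for the lectin comp44898_c0_seq1_30817, at 0.713 and 16.5 cpm in 20NV and at 3.07 and 8.33 cpm in 20V.

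The reverse look-up separated the 28V libraries. Of 3017 genes that were higher in 20V at an unadjusted p under 0.05, 96.5% were higher in 28V than in 28ST in suffix b, but 33.9% in suffix a, against 49.6% and 50.2% of all genes. Of 2428 genes that were lower in 20V, 97.4% were lower in suffix b and 36.1% in suffix a. The median difference of the 3017 genes was 0.85 at 20°, 0.76 in suffix b at 28° and -0.25 in suffix a. Suffix b of 28V thus shared its direction with the difference at 20° in nearly all of these genes, and suffix a in a smaller share than that of all genes. In the test of the change from 20° to 28° over 8 libraries in limma, 0 of 17425 genes passed (159 at an unadjusted p under 0.05), and edgeR gave 0 as well. Without 28V suffix b, 71 genes passed.

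**Figure D5:**
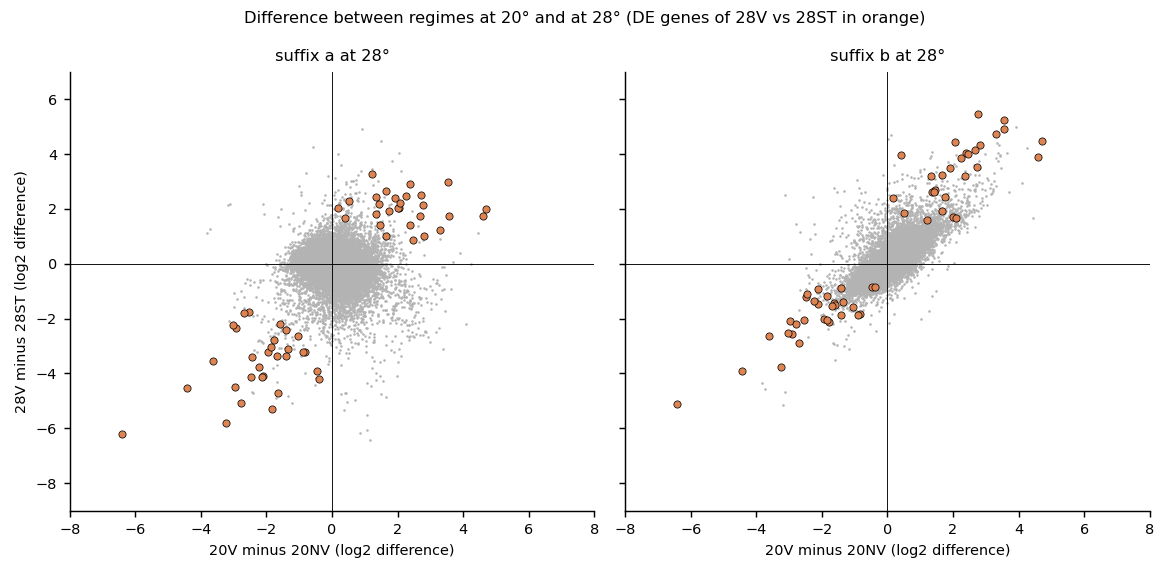
Log2 difference of 28V minus 28ST in suffix a (left) and suffix b (right) against the mean log2 difference of 20V minus 20NV (x axis) for each gene, with the 58 DE genes of 28V vs 28ST in orange. The grey genes follow the 20° difference in suffix b and scatter without such a trend in suffix a, while the orange genes lie in the same 2 quadrants in both.

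Some genes could not be tested because they were listed for only 1 regime at 28°, each table holding genes that reached 2 cpm in at least 2 of its 4 libraries. In all, 582 genes were listed only with 28ST and 853 only with 28V. Of the former, 43 were at 10 cpm or more in both 28ST libraries, and of the latter 3 were at 10 cpm or more in both 28V libraries, all values as deposited. At the top, and chosen after their values were seen, comp32325_c0_seq1_17586 was at 325 and 393 cpm in 28ST and comp32014_c0_seq1_17325 at 173 and 269 cpm. Described examples were the venom allergen 5-like TCALIF_06473 at 91.0 and 76.2 cpm and aminopeptidase n (TCALIF_04682), a digestive peptidase, at 50.8 and 52.6 cpm in 28ST. In the other direction, comp36555_c0_seq1_21209 was at 64.4 and 407 cpm in 28V and TCALIF_03497 at 40.6 and 278 cpm. For the other regime it is known only that fewer than 2 of the 4 libraries of its table reached 2 cpm. A single library of that regime may thus have been higher.

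The other populations served to ask whether the response to regime at 28° was the same outside Santa Cruz. In the same 4-library fit 131 genes were called in BB-N (Bodega Bay; 0.763%), 1 in BR-S (Bird Rock; 0.00585%) and 0 in SD-S (San Diego; 1005 at an unadjusted p under 0.05). In tests of the difference in 28V vs 28ST between SC-N and each population in limma, 0 genes passed, with 785 at an unadjusted p under 0.05 against BB-N, 312 against BR-S and 235 against SD-S, and edgeR gave 0 in all 3. The DE genes of SC-N are therefore not shown to differ from the other populations. Leaving out 1 SC-N library gave between 146 and 532 genes against BB-N, between 351 and 395 against BR-S and 0 against SD-S. Of the 27 SC-N rises also tested in BB-N, 2 were higher in 28V there in both pairs and 16 were lower in both, against 33.3% and 32.7% of all genes tested in BB-N (the next shares are likewise of all genes of the population named). Of 27 rises tested in BR-S, 3 were higher in both pairs and 14 were lower in both, against 20.7% and 24.6%. Of 24 rises tested in SD-S, 7 were higher in both pairs and 4 were lower in both, against 26.6% and 25.7%. Of the falls, 13 of 24 were lower in both pairs in BB-N (against 32.7%), 7 of 19 in BR-S (24.6%) and 17 of 26 in SD-S (25.7%).

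Values of single genes are set side by side for the populations. Cuticle protein 7 (TCALIF_06039) was 3.17 higher in 28V in SC-N on the log2 scale but -2.71 in BB-N, and the difference of 5.88 had an unadjusted p = 0.0001 in limma and did not pass the adjustment. The bcs-1 gene TCALIF_12218 differed between them by 5.82 (unadjusted p = 0.00015 in limma), again without passing. TCALIF_13393, with no description, differed by -3.29 in SC-N, by -3.03 in BB-N, by -3.14 in SD-S and by -1.70 in BR-S on the log2 scale. It lay on the same side of 0 in all 4 populations. The Hsp70 TCALIF_06728 was -0.35 in SC-N and -2.45 in BB-N (limma adjusted p = 0.0126 within BB-N), with a difference of 2.08 between them that did not pass the adjustment (unadjusted p = 0.0131 in limma).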

How the data were processed

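RNA was sequenced as 100-bp single-end unstranded reads. The authors mapped the reads in CLC to each population's genomic transcripts (GT) and then to de novo transcripts (DNT), kept unique reads, kept a gene in a table if 2 or more of its 4 libraries reached 2 cpm, and scaled by TMM in edgeR. The signal values deposited by the authors are reads per unit of library size after TMM scaling. The log2 fold changes and p-values of the same tables are their own comparisons and were not used. Whole reads were recovered from the value of 1 read, and 100% of values were whole within 0.01.

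Reads of the 4 libraries were rescaled jointly by TMM, and log2(cpm + 1) was tested in R 4.3.3 with limma 3.58.1, with a variance trend, the suffix as block (1 residual degree of freedom), two-sided tests and Benjamini-Hochberg adjustment over all genes tested. Fold changes are on this scale, which understates those of low genes. The study's methods use the sequencing lane as block. No label ties a suffix to a replicate number or to a lane. Dishes are the replicates, 2 per treatment, and counting error adds to their spread in low genes, since some called genes had 4 reads or fewer in 28V suffix a. Alternatives used edgeR 4.0.16 and DESeq2 1.42.0, and all fits were tested on simulated data. Descriptions come from the study's supplement (2751 of 17468 genes tested), which covers mainly genes that the study called in some comparison. The lists and the described genes were thus partly chosen on these same libraries. No gene identifier matched the RefSeq table, so no coordinates or sequences are given. In all, 16 columns of values were not used. Lists and members were chosen with earlier results of these data known. Named genes are those the study names by identifier, the 10 largest rises and falls among DE genes with reads in all 4 libraries, the 6 largest with a description, up to 4 called members of each list (otherwise the 2 most abundant), all Hsp70, Hsp90 and small Hsp genes, and 2 rises and 2 falls that rested on 1 pair.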

Additional observations from a re-analysis of the deposited data

How the results depend on the processing

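The count of 58 DE genes between 28V and 28ST moved with the processing. It was 0 without the replicate block (366 genes at an unadjusted p under 0.05), 154 with DESeq2 size factors, 155 with a pseudocount of 5, 150 with robust empirical Bayes, 20 in edgeR's quasi-likelihood test, 0 with all 8 SC-N libraries in 1 fit and 21 at an adjusted p under 0.01. Under the other 8 changes of scaling, pseudocount, filter, trend, sign rule or test it lay between 40 and 83, and 37 of the 58 genes were kept in edgeR's likelihood ratio test and 40 in DESeq2. In the fit of 8 libraries, leaving out 1 library at 28° gave between 0 and 143 genes, the 143 without 28V suffix b and 0 without each of the others, with 3326 at an unadjusted p under 0.05 without 28V suffix a. With 1 library of 28V against both of 28ST and no block, a setting chosen after seeing the data, 1377 genes passed without 28V suffix a and 1473 without 28V suffix b. The lone library is there assumed to vary like the others, and 53 of the 58 genes passed in each. Each of the 58 that was tested kept its direction under each of these settings. The same libraries had chosen the 58 genes, so this was nearly fixed in advance and is no separate support. The suffix differences (b minus a) of 28ST and 28V correlated at 0.08 across genes, so the block rests on the methods of the study and not on a pairing seen in the data.

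The change of the difference with temperature stayed at 0 genes without the replicate block, in edgeR and with a pseudocount of 5, and leaving out 1 library gave between 0 and 71. The comparison at 20° gave 0 genes in edgeR's quasi-likelihood test and without the replicate block, and 14 with a pseudocount of 5. Against the other populations 0 genes passed without the block, in edgeR and with a pseudocount of 5. Leaving out 1 SC-N library gave between 146 and 532 genes against BB-N, between 351 and 395 against BR-S and 0 against SD-S. Among named genes, scaling as deposited reversed 4 differences near 0, TCALIF_06394 (-0.042), TCALIF_09395 (-0.037), TCALIF_11487 (-0.072) and TCALIF_12427 (-0.014). In the lists, a mean of at least 10 cpm raised the called vitellogenins from 1 to 3 and those of detoxification from 1 to 2. The causes were not tested.

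Where 1 library was left out of the fit of 8 libraries, these differences, none of them called, changed sign, with log2 ranges of comp32770_c0_seq1_17973 -0.29 to 0.17, comp38417_c0_seq1_22939 -0.64 to 0.28, comp41663_c0_seq1_26714 -0.78 to 0.38, comp46685_c0_seq1_33583 -0.61 to 1.06, comp50334_c0_seq1_42602 -0.34 to 0.31, comp51313_c0_seq1_44507 -0.82 to 0.17, Contig20_19 -0.51 to 0.13, TCALIF_00461 -0.31 to 1.84, TCALIF_00957 -1.08 to 0.059, TCALIF_01814 -1.86 to 3.05, TCALIF_02260 -0.80 to 0.47, TCALIF_02371 -0.88 to 0.40, TCALIF_02439 -0.90 to 0.10, TCALIF_03375 -1.86 to 0.49, TCALIF_03376 -0.93 to 0.16, TCALIF_03946 -0.47 to 0.13, TCALIF_04517 -0.78 to 0.025, TCALIF_04918 -0.14 to 1.40, TCALIF_05480 -0.64 to 1.80, TCALIF_05614 -0.34 to 0.17, TCALIF_06172 -2.32 to 1.46, TCALIF_06394 -0.21 to 0.35, TCALIF_06728 -1.20 to 0.53, TCALIF_09115 -0.12 to 0.75, TCALIF_09395 -0.14 to 0.29, TCALIF_09482 -1.56 to 0.25, TCALIF_10620 -0.75 to 2.10, TCALIF_10670 -0.19 to 0.74, TCALIF_11487 -0.26 to 0.32, TCALIF_12344 -2.33 to 1.26, TCALIF_12427 -0.36 to 0.56, TCALIF_12695 -0.86 to 0.58, TCALIF_13523 -0.30 to 0.23 and TCALIF_13715 -0.96 to 1.21.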

Other observations

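A vitellogenin 1 contig, Contig6667_8147, differed more between the suffixes than between the treatments. On the scale of all 8 libraries it was at 1154 and 121734 cpm in 28ST (suffix a and b) and at 52.7 and 27645 cpm in 28V. At 20° it was at 1070 and 131957 cpm in 20NV and at 1355 and 50263 cpm in 20V. Of 17425 genes, it was the only 1 that was at least 8-fold higher in suffix b in all 4 treatments of SC-N, and 0 genes were so in suffix a. It held between 2.51% and 12.4% of the reads in suffix b libraries and at most 0.130% in suffix a libraries. The other 4 vitellogenins did not show such a step between suffixes in 28ST, where TCALIF_13264 was at 7142 and 7702 cpm.

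Genes described by the fly gene cg13310 were divided between the regimes. Of 14 listed for SC-N, 5 were tested, 6 were listed only with 28ST and 3 only with 28V. Among the tested ones 1 rose (Contig4770_6379), against 0.16% of all genes and 0.836% of described genes. The differences ran from -2.29 to 3.82 on the log2 scale. In both pairs 3 were lower and 2 higher, against 18.4% and 18.2% of all genes. The family was singled out after its values were seen, and reads of near-identical copies could be lost or split in it.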
